A study of Mus musculus with 8 samples.

Results

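The nuclear genes for the subunits of oxidative phosphorylation were followed in fibroadipogenic progenitors (FAPs), stromal cells between the muscle fibres from which fibroblasts and adipocytes arise. Members were the rows of the deposited count table whose gene symbol begins like a subunit of complexes I to V (Nduf with a, b, c, s or v and a number, Sdha to Sdhd, Uqcr, Cyc1, Cox4 to Cox8 and Atp5), that are not named as pseudogenes and that had at least 10 reads in 2 or more of the 8 libraries. Of 24419 rows, 85 carried such a symbol and 82 were members: 36 for complex I, 4 for complex II, 9 for complex III, 16 for complex IV and 17 for complex V. The other 3 rows, Ndufs5, Cox8c and Cox7b2, were listed at 0 in every library. Ndufs5 is a subunit of complex I in most tissues and has 1 near copy among GENCODE transcripts, so its zero is uncertain and is not read as absence of the transcript. Each member was placed in a complex by its symbol alone. The count and medians of complex V therefore include Atp5s and Atp5sl, a pair kept apart from its subunits where members were grouped by role. The genes of the mitochondrial genome are not analysed here.

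FAPs came freshly sorted from the hindlimb muscle of C57BL/6J males. The gate kept SCA-1+, Hoechst 33342+ cells and dropped those that carried CD31, CD45 or α7-integrin or that took up propidium iodide. Mice of the sham group (n = 2) had sham surgery. Mice of the scrambled group (n = 3) had 2000000 KPCY cells, a mouse pancreatic cancer line, placed in the pancreas after lentiviral transduction with a scrambled construct. Mice of the knockdown group (n = 3) had KPCY cells whose lentivirus held an inhibitor of miR-27a-3p. Puromycin at 2 µg/mL had selected both lines over 7 days, and the injected volume was 50 µL, so each tumour group rests on 1 stable line, and the inhibitor was in the tumour cells and not in the FAPs. The labels used here give neither the age of the mice nor the time from surgery to sorting.

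In oxidative phosphorylation, complexes I and II take electrons from NADH and succinate, complex III passes them from ubiquinol to cytochrome c, and complex IV hands them to oxygen. Complexes I, III and IV pump protons across the inner mitochondrial membrane, and complex V, the ATP synthase, uses their return to make ATP. A few core subunits of complexes I, III, IV and V come from the mitochondrial genome; all other subunits come from nuclear genes, whose transcription is known to draw on factors such as NRF1, GABPA, YY1 and ERR alpha.

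Total counts ran from 15647436 to 28340450 per library, of which the members took between 0.3774% and 0.4603%. Pdgfra, the receptor that marks FAPs, lay between 1255 and 1587 CPM in all 8 libraries (CPM, the usual count normalised to depth, here by library total and TMM factor). Ly6a, which encodes SCA-1, lay between 933 and 1175 CPM in the sham and knockdown libraries and scrambled library 2, and at 450 and 436 CPM in scrambled libraries 1 and 3. Of the 10 progenitor markers, 4 had a positive and 6 a negative change from sham to scrambled libraries, and none was called (edgeR). At an unadjusted p under 0.05, 1 was higher and 3 lower, where 16.7% and 12.5% of all genes were. Cd34 was at 1804 to 2249 CPM in sham and knockdown libraries and at 213, 1179 and 241 CPM in scrambled libraries, and Col3a1, a fibrillar collagen, at 13178 to 22466 CPM and at 990, 10117 and 973 CPM. Lum, Col1a1 and Thy1 were likewise lowest in scrambled libraries 1 and 3. Dcn, the proteoglycan decorin, was highest in the scrambled group, at 24970, 19614 and 21048 CPM against 11095 to 16196 CPM elsewhere. Pecam1 (CD31), which the gate excludes, was at 20.2 to 49.0 CPM in sham and knockdown and 73.0, 37.6 and 56.2 CPM in scrambled libraries. On the first principal component of log2 CPM (61.1% of the variance) the scores were 115.5 and 92 for scrambled libraries 1 and 3, -12.3 for scrambled library 2 and -47.7 to -32.3 for the other 5 libraries. The scrambled group was therefore uneven, and the counts and medians of members and lists from sham to scrambled libraries are given with and without its library 2. Library 2 was singled out after these values were seen, and without it 51% of 13547 genes were called (edgeR). Adjusted p-values without it, also those of single genes, therefore describe scrambled libraries 1 and 3 and are no support of their own.

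Promoter sequence was read from RefSeq (GRCm38.p6, 250 bases before to 50 after a start), which held a window for 64 of the 82 members. The NRF1 motif was searched on both strands as GCGC, then any base, then TGCGC, and stood in 16 of the 64 (25%), against 4.6% of all 32851 windows and 10.92% of the 10304 tested genes with a window. The YY1 motif AAGATGGCG, also on both strands as were the next, was found in 7 (10.9%, against 1.4% of windows and 3.38% of tested genes), the GABPA motif CCGGAAGT in 5 (7.8%, against 3.89% and 8.49%) and the ERR alpha motif TCAAGGTCA in 2 (3.1%, against 0.42% and 0.32%). Atp5h and Atp5g3 each held 2 of these motifs, as did Ndufs6 and Sdhd. The stretches below show a match, in capitals, upstream of the start of 1 member each of complexes I, II, III and IV: an NRF1 match in Ndufa11 (chr17:56717677-56717736, plus strand), Sdhd (chr9:50603894-50603953, minus strand) and Cox6a1 (chr5:115349086-115349145, minus strand), and a GABPA match in Uqcr11 (chr10:80406855-80406912, minus strand). Ndufa11 and Uqcr11 are shown because they were among the members with the smallest p in their complexes, Sdhd because its values overlapped between the groups, and Cox6a1, with 1 of its 2 matches, as a member of high level.
Ndufa11: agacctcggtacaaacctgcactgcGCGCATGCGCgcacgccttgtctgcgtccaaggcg
Sdhd: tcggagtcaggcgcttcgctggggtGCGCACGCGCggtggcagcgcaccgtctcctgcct
Cox6a1: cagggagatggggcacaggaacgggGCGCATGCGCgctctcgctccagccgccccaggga
Uqcr11: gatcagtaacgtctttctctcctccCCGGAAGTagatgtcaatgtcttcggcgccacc
Any overlap between motifs was allowed. A match is a run of letters and was not tested for binding. Members with an NRF1 match had a median log2 change of -0.15 from sham to scrambled libraries and the 48 without one a median of -0.149. For the other motifs, the medians with and without a match were -0.285 and -0.146 (YY1, 7 members with it), 0.01 and -0.152 (GABPA, 5) and -0.04 and -0.153 (ERR alpha, 2). These are descriptions over few members, and no difference between them was tested.

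Levels of different genes were compared as CPM per kb of exon. The highest members over all libraries were Atp5b, the catalytic beta subunit of ATP synthase, at 237 CPM per kb, Cox4i1, the widely expressed form of COX4, at 225, and Uqcrh, the hinge protein of complex III, at 173. Cox6a1 and Cox8a followed at 165 and 140 CPM per kb. The lowest were tissue isoforms of complex IV, down to Cox6a2, the heart and muscle form of COX6A, at 0.451 CPM per kb. Of the 82 members, 74 had a mean of at least 10 CPM and 5 a mean under 2 CPM: Cox6a2, Cox8b, Cox6b2, Cox7a1 and Cox4i2. All 82 passed the filter on low counts.

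**Figure D1:**
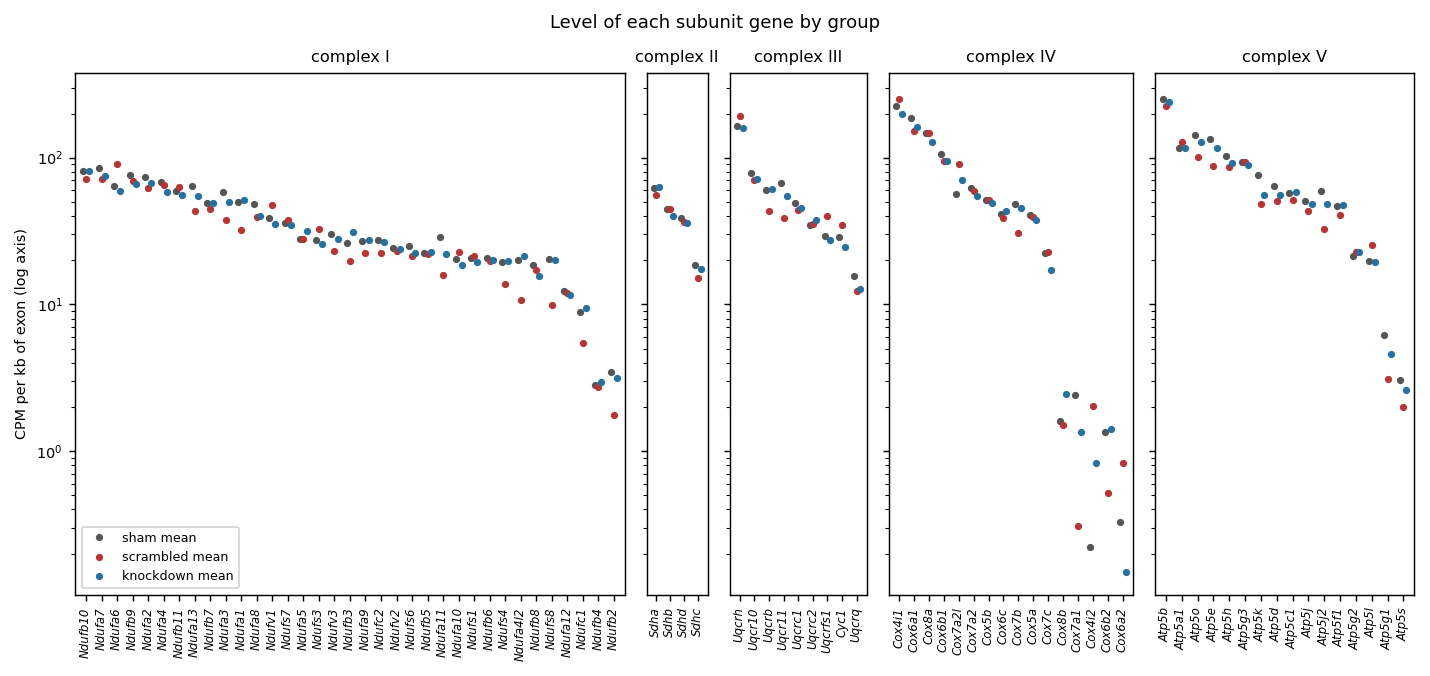
Mean level of the members shown in each group, in CPM per kb of exon on a log axis, ordered within its complex; grey is sham (n = 2), red scrambled (n = 3) and blue knockdown (n = 3). The tissue isoforms of complex IV lie at the low end. Over all libraries Cox8b was at 1.89 CPM per kb, with Ndufb2 and Ndufb4 of complex I not far above it at 2.71 and 2.83.

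Summed over all members the level was 4437 ± 166 CPM in the 2 sham libraries (mean and SD), 4157 ± 272 in the 3 scrambled and 4182 ± 83.4 in the 3 knockdown libraries. The scrambled libraries stood at 4314, 4315 and 3844 CPM, the first 2 just below the lower sham library (4319 CPM, against 4554 in the other). Complex V summed to 1587 ± 61 CPM in sham, 1422 ± 95.8 in scrambled and 1502 ± 33.4 in knockdown libraries, and its 3 scrambled sums were all lower than both sham sums. The same held for complex I, whose highest scrambled sum was 1297 CPM and lowest sham sum 1307 CPM. Knockdown sums were also all lower than both sham sums for complexes I, III, IV and V. Complex IV summed to 728 ± 19.9, 736 ± 74.8 and 677 ± 20.7 CPM in the same order. In RNA from a bulk of sorted cells, fewer cells of a kind and less RNA in each cell cannot be told apart.

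The comparison of scrambled with sham libraries asks how these genes stand in the FAPs of tumour-bearing mice, in work on the wasting that pancreatic cancer brings. No member passed the test (edgeR's quasi-likelihood test, adjusted by Benjamini and Hochberg over 13646 genes), where 150 genes (1.1%) were called higher and 65 (0.476%) lower, 1.58% of those tested. The smallest adjusted p among members was 0.0578. An unadjusted p under 0.05 was found for 2 members that were higher and 11 that were lower, against 16.7% and 12.5% of all genes, and DESeq2 called 2 higher and 5 lower of 81 with an adjusted p (2.47% and 6.17%), where it called 9.9% and 5.64% of 13344 genes. The groups did not overlap for 7 members that were higher and 29 that were lower in all 3 scrambled libraries, where 20.2% and 20.8% of all genes did so (41% in either direction). The log2 change was negative for 57 members and positive for 25, where 50.1% of all genes were positive, with a median of -0.146 against 0.002 over all genes tested. With library totals alone, a scaling chosen after seeing the data, 15 members were positive and the medians were -0.237 for members and -0.088 for all genes. Medians by complex were -0.163 for I, -0.118 for II, -0.146 for III, -0.052 for IV and -0.244 for V. The SD of the members' changes was 0.631, against 1.189 over all genes.

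**Figure D2:**
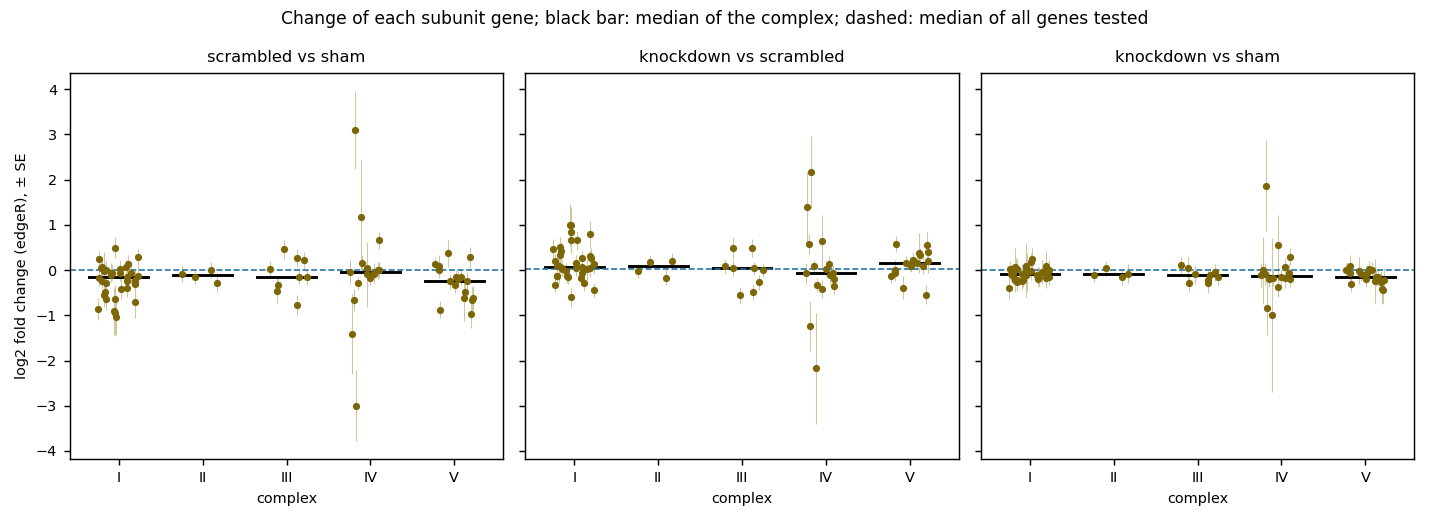
Log2 fold change of the members shown, by complex, in the 3 comparisons, with its standard error; the black bar is the median of the complex and the dashed line the median of all genes tested. From sham to scrambled libraries the medians of the 5 complexes lie between -0.244 and -0.052, and the widest values, near 3 in both directions, belong to Cox4i2 and Cox7a1.

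The members differed from sham mainly in scrambled libraries 1 and 3. More than 0.5 on the log2 scale from the sham mean lay 37.8% of members in scrambled library 1 (7 above, 24 below), 31.7% in library 3 (3 above, 23 below) and 8.54% in library 2. Of all genes tested, 66.7%, 59.5% and 25.3% lay that far in the same 3 libraries, so a smaller share of members than of genes at large did so in each. In each sham library 2.44% of members and 7.56% of genes also lay that far. The 2 sham libraries have equal shares by construction, as each is measured from the mean of both. These shares are therefore 1 difference and are not on the footing of those in the tumour groups. The smaller share of members was seen there too, and is not read as a weaker response. In the knockdown libraries the shares were 4.88%, 11% and 6.1% of members against 17.6%, 25.1% and 15.2% of genes. Scrambled library 2 was the nearest of the 3 to sham for 72% of members and 69.6% of all genes.

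**Figure D3:**
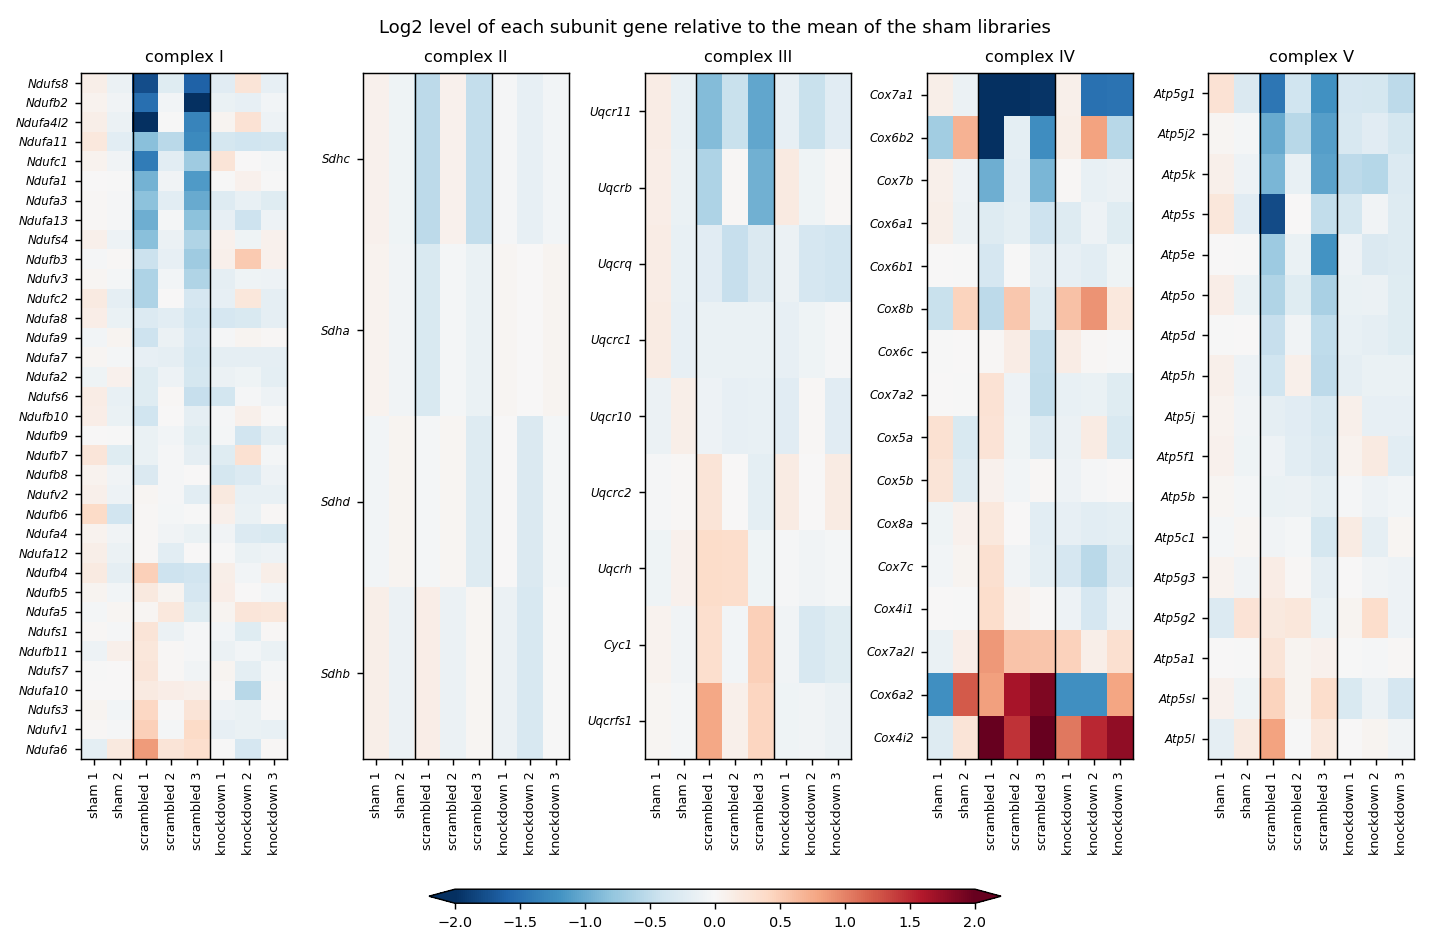
Log2 CPM (prior count 2) of the members shown in each library minus the mean of the sham libraries, by complex and ordered by the change from sham to scrambled libraries; colours end at -2 and 2. Blue and red are strongest in scrambled libraries 1 and 3, while scrambled library 2 is close to the sham and knockdown libraries for most members.

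Complex I has core subunits, which carry the flavin, the iron-sulphur clusters and the quinone site, and accessory subunits around them. Of its 7 nuclear core subunits, 5 had a positive log2 change from sham to scrambled libraries, with a median of 0.076 (-0.019 and 3 positive with library totals alone), and of the 27 accessory subunits 4 did, with a median of -0.233. Without library 2 these medians were 0.137 and -0.294. Ndufv1 (chr19:4007384-4012806), which binds NADH and the flavin, stood at 70.0 and 68.3 CPM in sham, 96.3, 67.5 and 90.4 in scrambled and 61.8, 62.8 and 62.6 in knockdown libraries. Scrambled libraries 1 and 3 were above every other library, and library 2 lay just under sham. The log2 change from sham to scrambled was 0.29 ± 0.18 SE (edgeR, adjusted p = 0.293). Ndufs3 and Ndufs7, of the arm in the matrix, had changes of 0.24 ± 0.18 and 0.08 ± 0.18, and Ndufs1 and Ndufv2, which carry iron-sulphur clusters, had changes of 0.05 ± 0.18 and -0.06 ± 0.19.

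Ndufs8 (chr19:3908863-3912774), which holds a pair of iron-sulphur clusters on the way to quinone, had the lowest change of the core subunits. It stood at 28.6 and 24.4 CPM in sham, at 7.64, 22.4 and 8.50 CPM in scrambled and at 22.7, 31.6 and 23.6 CPM in knockdown libraries. Scrambled libraries 1 and 3 were far below all other libraries, and library 2 was just below the lowest of them. The log2 change was -1.03 ± 0.42 (adjusted p = 0.15). Without scrambled library 2, a choice made after seeing the data, it fell by 1.72 (edgeR, adjusted p = 0.000104). In that fit 51% of all genes were called.

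Among accessory subunits, Ndufa11 (chr17:56717767-56722141), a membrane subunit at the contact with complex III, stood at 35.8 and 26.8 CPM in sham, 17.3, 21.4 and 12.8 in scrambled and 24.2, 23.4 and 24.1 in knockdown libraries. All 3 scrambled libraries were lower than every other library, and the knockdown libraries lay between the groups. Its change of -0.86 ± 0.24 had the smallest adjusted p of complex I, 0.0835, and it was called lower with DESeq2 (-0.85, adjusted p = 0.0232). Without library 2 it fell by 1.03 (edgeR, adjusted p = 0.00166). Ndufa3, a small membrane subunit, stood at 33.3 and 32.0 CPM in sham, 18.5, 28.3 and 16.2 in scrambled and 27.2, 29.5 and 27.6 in knockdown libraries (-0.63 ± 0.24; 0.134). Ndufa6, a small accessory subunit that binds the mitochondrial acyl carrier protein, was higher: 37.7 and 49.4 CPM in sham, 77.6, 51.9 and 54.3 in scrambled and 42.8, 34.4 and 43.8 in knockdown libraries (0.49 ± 0.23; 0.194). Ndufb2, a small membrane subunit, was named after its values were seen, for its low values in scrambled libraries 1 and 3. It stood at 15.9 and 14.3 CPM in sham, 5.21, 14.5 and 3.27 in scrambled and 13.7, 13.4 and 14.5 in knockdown libraries, so that scrambled library 2 lay with the sham group (-0.95 ± 0.49; 0.219).

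**Figure D4:**
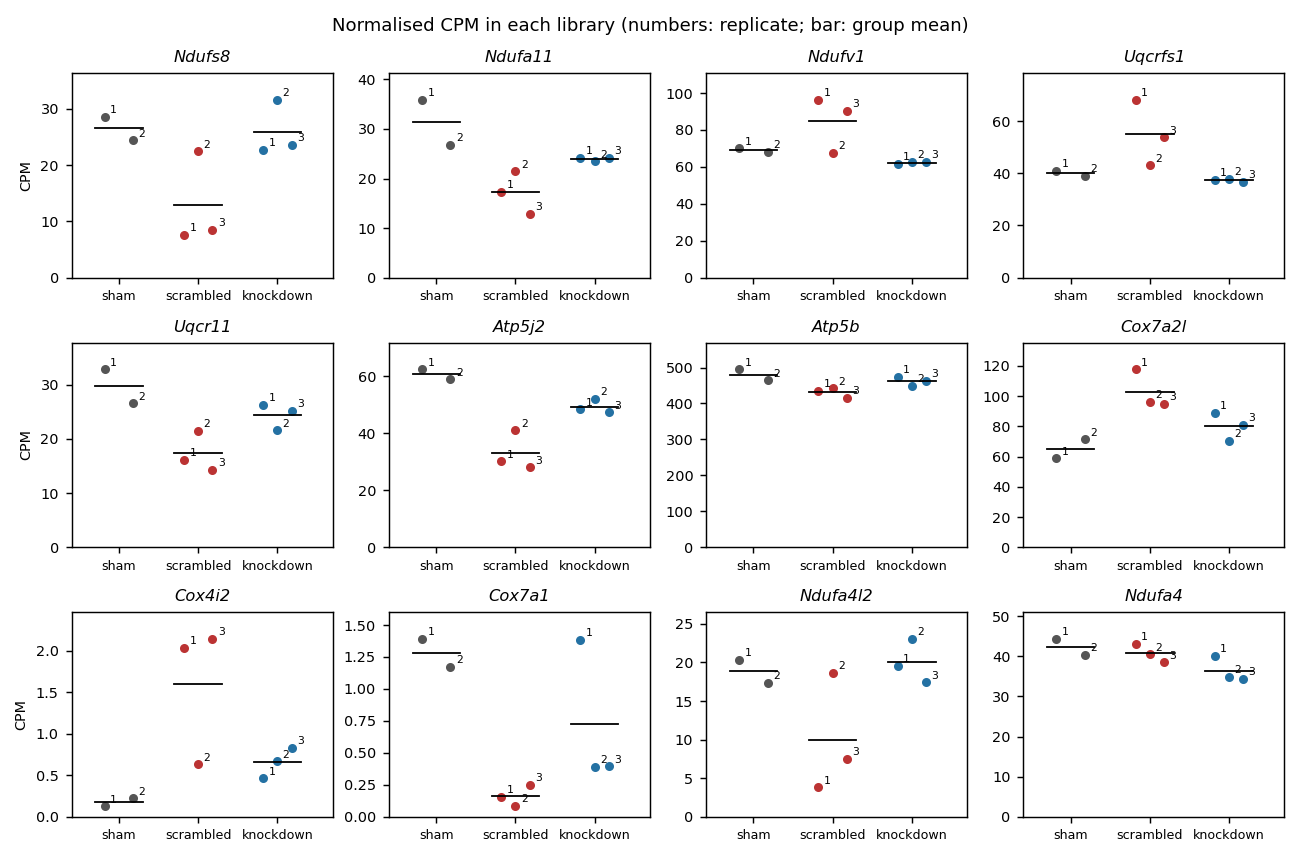
CPM of 12 members in each library; numbers are replicates and bars group means, for sham (grey), scrambled (red) and knockdown (blue). Ndufs8, Ndufv1 and Ndufa4l2 have scrambled library 2 beside the sham and knockdown values and libraries 1 and 3 apart; Atp5j2, Ndufa11, Uqcr11 and Cox7a2l have all 3 scrambled libraries apart from sham.

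Ndufa4 is named for complex I and is now placed with complex IV, and Ndufa4l2 is its hypoxia-induced homologue, known from pericytes. Ndufa4 stood at 44.3 and 40.4 CPM in sham, 43.1, 40.5 and 38.5 in scrambled and 40.1, 34.9 and 34.3 in knockdown libraries, with overlap of sham and scrambled (-0.06 ± 0.17; edgeR, adjusted p = 0.827). Ndufa4l2 (chr10:127514967-127517154) stood at 20.4 and 17.3 CPM in sham, 3.8, 18.7 and 7.49 in scrambled and 19.5, 23.0 and 17.4 in knockdown libraries. Again scrambled libraries 1 and 3 were the lowest of the 8 and library 2 was within the sham range (-0.91 ± 0.52; 0.254; without library 2, -1.80, adjusted p = 0.000424). Its share of the reads of the pair was 8.10% (Wilson 95% interval 6.68% to 9.78%) and 16.3% (13.8% to 19.1%) in scrambled libraries 1 and 3, against 30.0% to 39.8% in the other 6. Intervals cover counting error only.

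Complex II, the succinate dehydrogenase, has no subunit that is made in the mitochondrion. Sdha, the flavoprotein that oxidises succinate, stood at 188 and 172 CPM in sham, 146, 176 and 163 in scrambled and 185, 181 and 187 in knockdown libraries. The sham and scrambled values overlapped, as they did for the other 3 subunits. The log2 changes were -0.15 ± 0.16 for Sdha, 0.01 ± 0.18 for the iron-sulphur subunit Sdhb, -0.28 ± 0.21 for the membrane anchor Sdhc and -0.08 ± 0.17 for the anchor Sdhd (edgeR, adjusted p from 0.372 to 0.967). Sdhc was at 61.7 and 55.3 CPM in sham and 40.6, 61.8 and 42.1 CPM in scrambled libraries, and without library 2 it fell by 0.49 (adjusted p = 0.0119).

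In complex III the catalytic and core proteins had a median log2 change of 0.149 and the small subunits of -0.325 (0.234 and -0.248 without library 2). Uqcrfs1 (chr13:30540308-30545362), the Rieske iron-sulphur protein, stood at 40.8 and 39.0 CPM in sham, 68.1, 43.0 and 53.8 in scrambled and 37.5, 37.8 and 36.7 in knockdown libraries. The 3 scrambled libraries were all above the other 5, library 2 by the least (0.46 ± 0.21; edgeR, adjusted p = 0.177). Cyc1, cytochrome c1, stood at 45.6 and 41.7 CPM in sham, 55.1, 41.9 and 60.5 in scrambled and 41.3, 34.8 and 36.7 in knockdown libraries (0.26 ± 0.20; 0.374). The core proteins Uqcrc1 and Uqcrc2 had changes of -0.15 ± 0.16 and 0.03 ± 0.18. Uqcr11 (chr10:80402997-80406830), the smallest subunit of the complex, stood at 32.8 and 26.5 CPM in sham, 16.1, 21.5 and 14.3 in scrambled and 26.3, 21.6 and 25.2 in knockdown libraries. All 3 scrambled values were below all others, with library 2 just under the lowest knockdown value (-0.77 ± 0.23; 0.0919; DESeq2, -0.76, adjusted p = 0.0309; edgeR without library 2, -0.95, adjusted p = 0.00178). Uqcr11 has 2 near copies among GENCODE transcripts (at least 95% identity over 118 bases or more), so reads could be split between them.

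Of the 10 widely expressed subunits of complex IV, 3 had a positive change from sham to scrambled libraries, and the median was -0.052 (-0.002 without library 2). Cox4i1 stood at 174 and 171 CPM in sham, 220, 181 and 175 in scrambled and 162, 137 and 160 in knockdown libraries. The scrambled values were the highest of the 8 by a small margin (0.15 ± 0.17; edgeR, adjusted p = 0.55). Cox7b, a small membrane subunit, stood at 51.7 and 44.9 CPM in sham, 24.4, 41.7 and 25.6 in scrambled and 49.1, 43.7 and 44.3 in knockdown libraries (-0.66 ± 0.24; 0.127). It has 2 near copies. Cox5a, Cox6a1, Cox6b1, Cox7a2, Cox7c and Cox8a had changes between -0.29 and 0.04 (adjusted p from 0.244 to 0.972). Cox7a2l (chr17:83501918-83517330), also known as the factor that joins complexes III and IV into supercomplexes, stood at 58.8 and 71.4 CPM in sham, 118, 96.2 and 94.8 in scrambled and 89.2, 70.3 and 81.0 in knockdown libraries. Here scrambled library 2 was with the other 2 and all 3 were above every other library (0.66 ± 0.19; 0.0862; DESeq2, 0.68, adjusted p = 0.0187; edgeR without library 2, 0.72, adjusted p = 0.00426).

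The tissue isoforms of complex IV were near the floor of detection. Cox4i2 (chr2:152754173-152765037), an isoform of COX4 known from lung and from pericytes, had 2 and 4 reads in sham, 52, 15 and 34 in scrambled and 9, 12 and 19 in knockdown libraries. In CPM these were 0.126 and 0.223, then 2.04, 0.634 and 2.14, then 0.462, 0.669 and 0.831, so that every tumour library was above both sham libraries. The change from sham to scrambled was 3.10 ± 0.87 (edgeR, adjusted p = 0.0799; DESeq2, 3.20, adjusted p = 0.0153), and its share of COX4 reads was between 0.0725% and 1.21% in all libraries. Cox7a1 (chr7:30184144-30186078), the heart and muscle form of COX7A, had 22 and 21 reads in sham, 4, 2 and 4 in scrambled and 27, 7 and 9 in knockdown libraries, with all 3 scrambled libraries lowest (-3.00 ± 0.78; 0.0667; DESeq2, -2.99, adjusted p = 0.0321). Its share of COX7A reads was 3.27% and 2.82% in sham, 0.314%, 0.222% and 0.860% in scrambled and 3.61%, 1.04% and 1.13% in knockdown libraries. Cox6a2, Cox6b2 and Cox8b had between 0 and 29 reads in each library and changes of 1.18 ± 1.26, -1.41 ± 0.89 and -0.10 ± 0.72 (adjusted p from 0.295 to 0.933).

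Markers of other cell types also differed between the libraries. The list of muscle fibre markers, which holds Cox6a2, Cox7a1 and Cox8b themselves, summed to 54.1 and 103 CPM in sham, 135, 128 and 392 in scrambled and 72.5 to 94.6 CPM in knockdown libraries. None of its 19 tested genes was called from sham to scrambled libraries (edgeR; at an unadjusted p under 0.05, 6 were higher and 1 lower), 16 had a positive change, and Myh7, of slow fibres, had 3 reads in scrambled library 1 and 0 elsewhere. Cox7a1 therefore went against the direction of most of that list. The list of pericyte markers, which holds Cox4i2 and Ndufa4l2, summed to 199 and 225 CPM in sham, 156, 249 and 250 in scrambled and 239 to 307 CPM in knockdown libraries. Of its 11 genes 9 had a positive change and none was called (edgeR; at an unadjusted p under 0.05, 6 were higher and 1 lower), Rgs5 ran from 11.9 and 14.9 CPM in sham to 22.5, 35.1 and 42.2 in scrambled libraries, and Cspg4 from 92.2 and 103 to 3.45, 35.7 and 6.86 CPM. Markers of mature adipocytes summed to 1.14 and 3.79 CPM in sham, 30.0, 20.4 and 46.8 in scrambled and 2.82 to 7.14 CPM in knockdown libraries. Of its 5 tested genes 1 was called from sham to scrambled libraries, Plin4, a lipid droplet protein, which rose from 1.14 and 3.18 to 20.1, 18.8 and 41.1 CPM (3.59 ± 0.59; edgeR, adjusted p = 0.03) and made most of the sum. With all 8 libraries 1.58% of all genes were called (edgeR). At an unadjusted p under 0.05, 16.7% of all genes were higher and 12.5% lower. Without scrambled library 2 the calls higher and lower were 5 and 1 of 18 for muscle fibre, 4 and 2 of 11 for pericyte, 3 and 0 of 3 for adipocyte and 1 and 6 of 10 for progenitor markers. Of all genes, 25.4% and 25.6% were then called. The part of these cells in the values of the members was not tested.

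Complex V had the lowest median of the 5 complexes, -0.244, and 10 of its 17 members were lower than sham in all 3 scrambled libraries, as were 20.8% of all genes. Without library 2 the median was -0.241. In the catalytic head, Atp5b stood at 495 and 464 CPM in sham, 435, 443 and 417 in scrambled and 473, 449 and 464 in knockdown libraries. The scrambled values were all below the others, by a small step (-0.15 ± 0.16; edgeR, adjusted p = 0.516). Atp5a1, the alpha subunit, was at 341 and 340 CPM in sham, 406, 354 and 360 in scrambled and 340, 336 and 345 in knockdown libraries (0.13 ± 0.16; 0.574), and Atp5c1, the gamma subunit of the central stalk, had a change of -0.15 ± 0.17. Atp5j2 (chr5:145183698-145192062), subunit f of the membrane part, had the smallest p of all members. It stood at 62.5 and 59.1 CPM in sham, 30.2, 41.1 and 28.1 in scrambled and 48.4, 52.2 and 47.4 in knockdown libraries. The 3 groups did not overlap at all, with scrambled lowest and knockdown between (-0.87 ± 0.19; 0.0578; DESeq2, -0.86, adjusted p = 0.0028; edgeR without library 2, -1.05, adjusted p = 0.000122). Atp5k, subunit e, stood at 30.5 and 26.4 CPM in sham, 15, 25.6 and 13.5 in scrambled and 19.7, 19.1 and 23.5 in knockdown libraries (-0.65 ± 0.28; 0.167), and has 1 near copy.

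The c-ring, the rotor that protons turn, is encoded by 3 genes for the same mature protein. Atp5g1 (chr11:96068852-96075670) stood at 36.1 and 24.3 CPM in sham, 10.8, 22.4 and 12.8 in scrambled and 23.4, 23.2 and 20.7 in knockdown libraries. Scrambled libraries were all below sham, and library 2 overlapped the knockdown values (-0.97 ± 0.32; edgeR, adjusted p = 0.106; DESeq2, adjusted p = 0.0457). The other two, named after their values were seen, overlapped between groups: Atp5g2 was at 12.6 and 18.6 CPM in sham and 17.7, 18 and 14 in scrambled libraries (0.09 ± 0.26), and Atp5g3 at 70.4 and 64.2 and at 74.3, 68.4 and 59.3 CPM (0.00 ± 0.16). Per kb of exon Atp5g3 had the highest of these levels, 93.0 CPM per kb in sham and in scrambled libraries alike. Atp5g1 has 5 near copies and Atp5g2 has 2, so reads between them are uncertain.

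Without scrambled library 2, 31 of the 81 members then tested passed the test from sham to scrambled libraries. Of these, 7 rose and 24 fell, 8.64% and 29.6% of the members, where 25.4% and 25.6% of 13547 genes rose and fell (51% in either direction). The share that fell was thus near that of all genes and the share that rose was below it. By complex 3 rose and 11 fell in I, 0 and 1 in II, 2 and 2 in III, 2 and 2 in IV and 0 and 8 in V. Those that rose included Ndufv1, Ndufa6, Uqcrfs1, Cyc1, Cox7a2l and Cox4i2, with log2 changes from 0.41 for Cyc1 to 3.51 for Cox4i2. The largest falls with over 10 CPM were Ndufa4l2 (-1.80), Ndufb2 (-1.77), Ndufs8 (-1.72) and Atp5g1 (-1.36). The medians were then -0.187 for members and -0.014 for all genes, and -0.218, -0.174, -0.128, -0.027 and -0.241 for complexes I to V. Leaving out any other library called no member.

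**Figure D5:**
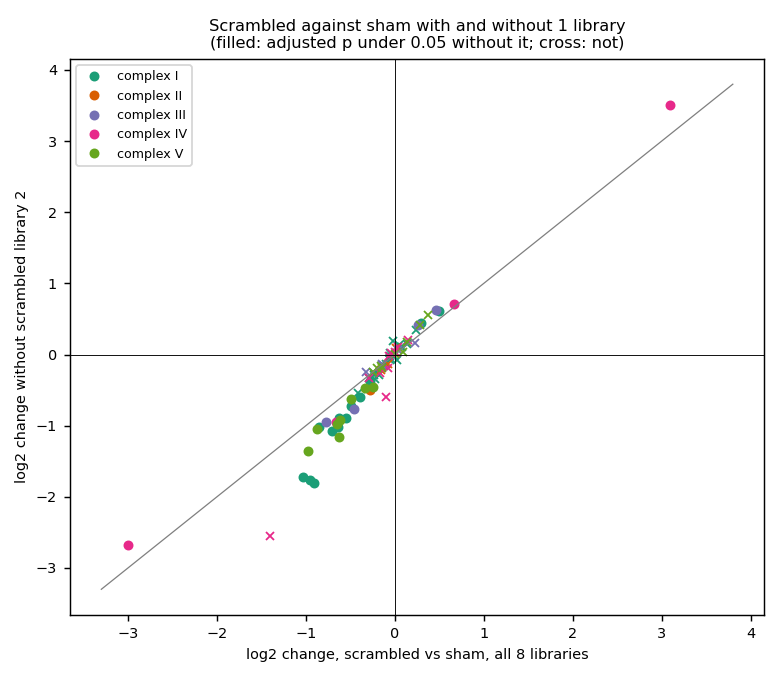
Log2 change of the members shown from sham to scrambled libraries with all 8 libraries (x axis) and without scrambled library 2 (y axis), coloured by complex; filled points had an adjusted p under 0.05 without that library and crosses did not. Most points that passed lie farther from 0 without it, below the grey line of equality on the left and above it on the right.

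The comparison of knockdown with scrambled libraries asks whether the inhibitor in the tumour cells went with other levels in the FAPs. The change was negative for 5 of the 7 core subunits of complex I and positive for 21 of its 27 accessory subunits and 12 of the 17 members of complex V. No member passed the test (edgeR), where 1 gene (0.00733%) was called higher and 6 (0.044%) lower, 0.0513% of 13646. At an unadjusted p under 0.05, 9 members were higher and 7 lower (13.9% and 18.5% of all genes), and DESeq2 called 2 higher, Atp5j2 and Ndufb3, and none lower (2.47% and 0% of members, against 5.94% and 11.5% of all genes). Groups did not overlap for 15 members higher and 14 lower, near the 17.5% and 16.7% of all genes (34.2% in either direction). The change was positive for 51 of 82, where 50.8% of all genes were positive, with a median of 0.07 against 0.014 for all genes, and 0.003 without scrambled library 3. This comparison and that of scrambled with sham share the scrambled libraries, so a library that is low there raises the change here.

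Atp5j2 again had the smallest p, with a change of 0.57 ± 0.18 (edgeR, adjusted p = 0.0858; DESeq2, adjusted p = 0.0379). Ndufb3, a membrane accessory subunit of complex I, stood at 14.9, 18 and 12.3 CPM in scrambled and 21.4, 29.0 and 21.3 in knockdown libraries, against 19.9 and 20.3 in sham, so that the knockdown values were the highest of all (0.66 ± 0.21; 0.0904; DESeq2, 0.65, adjusted p = 0.0461). Ndufs8, Ndufa11, Cox7b and Uqcr11 were higher in all 3 knockdown than in all 3 scrambled libraries, by 1.00 ± 0.39, 0.47 ± 0.22, 0.58 ± 0.22 and 0.49 ± 0.21 (adjusted p from 0.119 to 0.17). Uqcrfs1, Ndufa6, Cyc1 and Ndufv1 were lower, by -0.56 ± 0.18, -0.60 ± 0.21, -0.48 ± 0.18 and -0.44 ± 0.16 (0.0943 to 0.113). For each of these 8 genes the groups did not overlap. Without scrambled library 2, 22 members rose and 12 fell from scrambled to knockdown libraries, 27.2% and 14.8% of 81, where 27.3% and 26.6% of all genes did (54% in either direction).

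Knockdown libraries lay close to sham for most members, and slightly below. No member was called (edgeR, adjusted p = 1 for each; none at an unadjusted p under 0.05, which 1.67% of all genes had as higher and 0.696% as lower, and none with DESeq2, which called 0.176% of all genes higher and 0.00735% lower), where 1 gene was called in all, 0.00733%. The groups did not overlap for 3 members higher and 26 lower, against 13.8% and 13.5% of all genes (27.2% in either direction), so the count of lower members was above that background. The change was negative for 61 of 82 and positive for 21, where 49.8% of all genes were positive, with a median of -0.098 against -0.001 for all genes, and the medians of the 5 complexes ran from -0.151 (V) to -0.081 (I). The largest change was that of Cox4i2, 1.86 ± 1.02, with few reads. Ndufa11 was at -0.39 ± 0.24, Atp5g1 at -0.43 ± 0.32, Atp5k at -0.45 ± 0.28 and Cox7c, a small subunit of complex IV, at -0.38 ± 0.21. Cox7a2l stood at 0.30 ± 0.19, with its values of 70.3, 81.0 and 89.2 CPM overlapping those of sham. This comparison shares its sham libraries with that of scrambled against sham. Its p-values and SEs take their error from all 8 libraries, the uneven scrambled group among them, so the lack of calls does not show equal levels. The SE of Ndufs8 was 0.42 here and 0.19 without scrambled library 2. With only the sham and knockdown groups in the fit, 73 genes were called higher and 28 lower. None of the members named by rule was called from sham to knockdown libraries in that fit or under any other alternative.

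Genes that serve the complexes were taken from lists of general knowledge. From sham to scrambled libraries none of the assembly factors was called (edgeR): 0 of 13 for complex I, 0 of 4 for II, 0 of 6 for III, 0 of 20 for IV and 0 of 4 for V, with medians of -0.289, -0.704, -0.613, -0.292 and 0.045 (the last -0.043 with library totals alone). The list for V also holds Atpif1, an inhibitor of ATP synthase and not an assembly factor. At an unadjusted p under 0.05 they counted 1 higher, Cox19, and 7 lower, where 16.7% and 12.5% of all genes were. Without scrambled library 2, 3 of complex I fell, 2 of II, 3 of III, 8 of IV and 1 of V, and 1 of IV rose. The 1 of V that fell was the inhibitor, Atpif1. Of all genes, 25.6% then fell and 25.4% rose. The medians of the 5 lists were -0.327, -0.989, -1.339, -0.484 and -0.144, the last with the opposite sign. Uqcc2, an assembly factor of complex III, stood at 72.5 and 46.0 CPM in sham, 7.40, 35 and 7.62 in scrambled and 38.8, 38.0 and 39.9 in knockdown libraries (-1.82 ± 0.58; adjusted p = 0.104). As with Ndufs8, scrambled libraries 1 and 3 were far below all others. Sdhaf4, for complex II, stood at 7.97 and 7.14 CPM in sham and 2.98, 5.45 and 2.27 in scrambled libraries (-1.05 ± 0.40; 0.132).

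The regulators of mitochondrial biogenesis mostly had positive changes from sham to scrambled libraries, where 57 of the 82 members had negative ones. The members had no single sign: 11 of the 20 on a list of core subunits were positive (7 with library totals alone). Of 20 regulators tested, 17 had a positive change from sham to scrambled libraries (median 0.428), and 1 was called. Of all genes tested, 50.1% had a positive change and 1.58% were called. With scrambled library 2 left out, 9 rose and none fell (median 0.527), where 25.4% of all genes rose and 25.6% fell. Nrip1, a corepressor known to restrain oxidative genes, rose from 41.5 and 55.2 CPM in sham to 196, 119 and 163 in scrambled libraries (1.72 ± 0.25; edgeR, adjusted p = 0.0232) and stood at 83.4, 103 and 84.8 in knockdown libraries. Every scrambled library was above every knockdown library, and every knockdown library above both sham libraries. Tfb2m, a factor for transcription of the mitochondrial genome, was at 4.36 and 4.24 CPM in sham, 21.7, 9.42 and 13.0 in scrambled and 5.28, 5.02 and 4.81 in knockdown libraries (1.78 ± 0.39; 0.0578). From scrambled to knockdown libraries 18 of the 20 had a negative change (median -0.344) and none was called (edgeR). At an unadjusted p under 0.05, 0 were higher and 6 lower, where 13.9% and 18.5% of all genes were.

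The supply of electrons and the making of mitochondrial proteins showed no called gene from sham to scrambled libraries (edgeR): 0 of 18 enzymes of the citric acid cycle (median -0.066), 0 of 23 electron carriers and shuttles (-0.082), 0 of 77 mitochondrial ribosomal proteins (-0.114) and 0 of 22 import genes (0.044). At an unadjusted p under 0.05, 0 were higher and 2 lower in the first, 1 and 1 in the second, 4 and 3 in the third and 4 and 1 in the fourth. Of all genes tested, 16.7% were higher and 12.5% lower at that threshold. Without scrambled library 2 the calls higher and lower were 4 and 4 (median -0.068), 2 and 6 (-0.2), 9 and 20 (-0.2) and 6 and 6 (0.036), where 25.4% and 25.6% of all genes were called. Ogdh, the E1 subunit of 2-oxoglutarate dehydrogenase, stood at 224 and 192 CPM in sham, 70.6, 148 and 106 in scrambled and 189, 192 and 185 in knockdown libraries (-0.94 ± 0.27; adjusted p = 0.0856). Gpd2, which feeds electrons from glycerol 3-phosphate, was at 18.3 and 16.6 CPM in sham, 8.81, 13.3 and 9.76 in scrambled and 16.9, 19.9 and 19.2 in knockdown libraries (-0.71 ± 0.24; 0.111). Slc25a5, an ADP/ATP carrier, was at 65.2 and 52.1, then 88.9, 82.2 and 77.0, then 63.7, 69.8 and 56.6 CPM (0.50 ± 0.18; 0.122). In all 3, the scrambled values did not overlap those of the other groups.

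Across the 81 members with a transcript in GENCODE M21, the change from sham to scrambled libraries had a Pearson correlation of 0.06 with transcript length and 0.06 with GC content (Spearman 0.13 and 0.04), a description over genes that share the same libraries. With mean log2 CPM, over all 82 members, the Pearson correlation was 0.07 and the Spearman correlation 0.25, the largest of the 3. Over all genes tested these were -0.09 and 0.04. The median change was -0.221 among the shortest transcripts (360 to 659 bases, n = 27), -0.057 in the middle (680 to 1110) and -0.152 among the longest (1142 to 4715). At least 1 near copy was found for 25 members, and for 11 a copy covered over 50% of the transcript. Atp5l, subunit g of ATP synthase, had the most, 9, and its change of 0.37 ± 0.30 is uncertain for that reason. Of the members named, Ndufs3, Ndufb2, Ndufb3, Cox7a2l, Cox7c and Atp5c1 also have from 1 to 3 such copies.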

How the data were processed

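The authors deposited raw counts, whole reads per gene symbol, with a column for each of the 8 libraries (Illumina stranded mRNA, RNA integrity number of at least 7, paired reads of 59 bases, per the labels' protocols). The submitters' processing notes name mm10 and, with no roles, Bowtie, STAR, R 4.2.1, DESeq2 1.36.0 and bcl2fastq 2.20; counting tool, annotation and strand were not given in the sources used here. Strand matters where genes overlap an antisense gene. The labels call the libraries biological replicates. In the main fit, p-values set a difference between groups against the spread between replicates, pooled over all 8 libraries and in part across genes.

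Counts were analysed in R 4.3.3 with edgeR 4.0.16 (filterByExpr, minimum count 10, minimum total 15; TMM; robust quasi-likelihood fit over all 8 libraries; two-sided; Benjamini-Hochberg over 13646 genes; threshold 0.05). Standard errors (SE) were taken from the F statistic and the log2 change. The fit was tested on simulated data. Alternatives were DESeq2 1.42.0, limma-voom (limma 3.58.1), other scalings and filters, only the groups compared, a replicate block and each library left out. Locations and lengths came from GENCODE M21 (GRCm38; 95.6% of symbols matched; Atp5sl did not). Members, lists, roles and the rule for named genes (per complex and comparison the 2 with the smallest p, core subunits, isoform pairs, highest and lowest level; 2 per other list) come from general knowledge and were chosen with earlier results of these data known. The values of 1 member are not reported here and are left out of the figures; it stays in the counts and medians.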

Additional observations from a re-analysis of the deposited data

How the results depend on the processing

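Of the 135 log2 changes of named members over the 3 comparisons, none called by edgeR with all 8 libraries and 9 called by DESeq2, 33 had another sign under at least 1 alternative. Over the alternatives from the plan, the calls of all genes moved as follows (higher and lower). From sham to scrambled libraries they were 1321 and 753 with DESeq2, 4 and 0 with only the 2 groups compared, and 0 to 3441 and 0 to 3467 with a library left out, the most without scrambled library 2. From scrambled to knockdown libraries they were 792 and 1528 with DESeq2, 0 higher with limma-voom, 10 lower with no filter on low counts, 0 and 0 with only 2 groups, and 0 to 3705 and 0 to 3608 with a library left out. From sham to knockdown libraries they were 24 and 1 with DESeq2, 2 higher with no filter, 73 and 28 with only 2 groups, and 0 to 23 and 0 to 9 with a library left out. Unscaled library totals, a setting chosen after seeing the data, gave 0 and 1 from scrambled to knockdown and 2 higher from sham to knockdown libraries. They moved the median of all genes to 0.115 and that of members to 0.174 from scrambled to knockdown, and to -0.088 and -0.237 from sham to scrambled libraries.

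Members called were 2 higher and 5 lower (DESeq2), and 0 to 7 and 0 to 24 with a library left out, from sham to scrambled; and 2 higher (DESeq2), and 0 to 22 and 0 to 12 with a library left out, from scrambled to knockdown libraries. The median of complex I from sham to scrambled was -0.060 without sham library 1 and -0.264 without sham library 2. Same-numbered libraries deviated together with correlations from -0.06 to 0.17, so the numbers were not taken to pair them; with the replicate number as a block, 14 genes were higher and 2 lower from sham to scrambled, 0 and 0 from scrambled to knockdown (4165 at an unadjusted p under 0.05) and 0 higher from sham to knockdown libraries, and no member was called. Depth limits the tissue isoforms of complex IV, with 0 to 52 reads per library.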
